A study of Saccharomyces cerevisiae with 5 samples.

Results

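The genes described here encode the machinery that builds the small (40S) subunit of the yeast ribosome. They numbered 41 and were chosen by name: core proteins of the box C/D and box H/ACA ribonucleoproteins, proteins of the U3 small subunit processome, and factors that act on the later pre-40S particle. A single-gene probe set was found on the array for 40 of the 41, all but NOP10, and where a gene had several the one with the brightest mean was used. All 40 passed the filter on dim probe sets and lay above the background level on all 5 arrays, among 6294 probe sets tested. The measurements came from 5 single-colour expression arrays of total RNA from Saccharomyces cerevisiae, 2 of the wild type strain BMA64 and 3 of a vts1 deletion made in BMA64. Both strains grew at 30 degrees in SD, a defined glucose medium, and were collected at an OD600 of 0.4. VTS1 encodes an RNA-binding protein that promotes the decay of mRNAs carrying a short hairpin. The titles of all 3 deletion arrays name VTS1. Those of replicates 1 and 2 also bear the marks dvts1-1 and dvts1-2, while that of replicate 3 bears no such mark. The labels do not say whether these are separate clones or cultures. The same entry on chemical transfection with VTS1 stands in the labels of all 5 arrays, wild type included, and is not explained there.

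In the nucleolus, RNA polymerase I makes a long precursor of ribosomal RNA, onto which many proteins and the U3 small nucleolar RNA assemble as it is made. This small subunit processome folds the precursor and brings about the early cleavages that release the 18S part, while box C/D and box H/ACA particles methylate and pseudouridylate it. Later factors accompany the pre-40S particle to the cytoplasm, where it is finished. In yeast the genes for these proteins are known to be transcribed together, high in fast growth and low in starvation or stress.

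The deleted gene was read first. VTS1 had signals of 4952 and 5080 in wild type cells. Its signals of 19, 17.8 and 55 in the deletion strain were at least 33.4-fold lower (limma adjusted p = 8.46e-09). Log2 signals correlated at 0.981 to 0.990 between arrays of a group and at 0.960 to 0.969 between groups, across probe sets, which are not independent replicates. Control probe sets for the product of this pathway did not move together: 1 of the 5 for 18S ribosomal RNA had signals of 2989 and 3617 with VTS1 present and 1052, 1049 and 1060 without it, while in the other 4 the groups overlapped, with means of 1050 and 1120 for the brightest of them. As a sign of RNA integrity, the signal of the 3' probe set over that of its 5' partner was 1.17 to 1.34 in the wild type and 1.25 to 1.51 in the deletion strain for actin, and 2.42 to 3.39 against 3.02 to 5.32 for SRB4. For TBP the ratio was 2.70 and 2.82 against 2.60, 2.79 and 2.37. The part of these differences in the results below was not tested.

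The small subunit assembly genes had small and mostly negative changes in the deletion strain, all but SOF1 by less than 1.5-fold, and SOF1 alone of the 40 passed the test. Of 40, 36 had a negative log2 change (deletion minus wild type), with a median of -0.22 and a range from -0.60 to 0.36; over all 6294 probe sets tested the median was -0.04 and 54.8% were negative. SOF1 was the 1 gene lower at an adjusted p under 0.05, or 2.5% of the genes where 3.05% of all probe sets tested were called lower, and 0 were called higher, against 4.39% of all. At an unadjusted p under 0.05, 12 were lower, or 30% of the genes against 11.1% of all probe sets, and 0 were higher, against 10.3%. In 21 of the 40, or 52.5%, all 3 deletion arrays lay below both wild type arrays, which held for 21.7% of all probe sets tested, and in 0 did they lie above both, which held for 16.8% of all. Counting genes in this way was not planned and was chosen after seeing the data. The 21 of 40 became 13 of 40 when each array was centred on its median, where the share over all probe sets was 19.0%. A lower signal in a culture cannot be told apart from fewer cells making the transcript, and since each array was scaled to the same total, the values are shares of the mRNA and not amounts per cell.

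**Figure D1:**
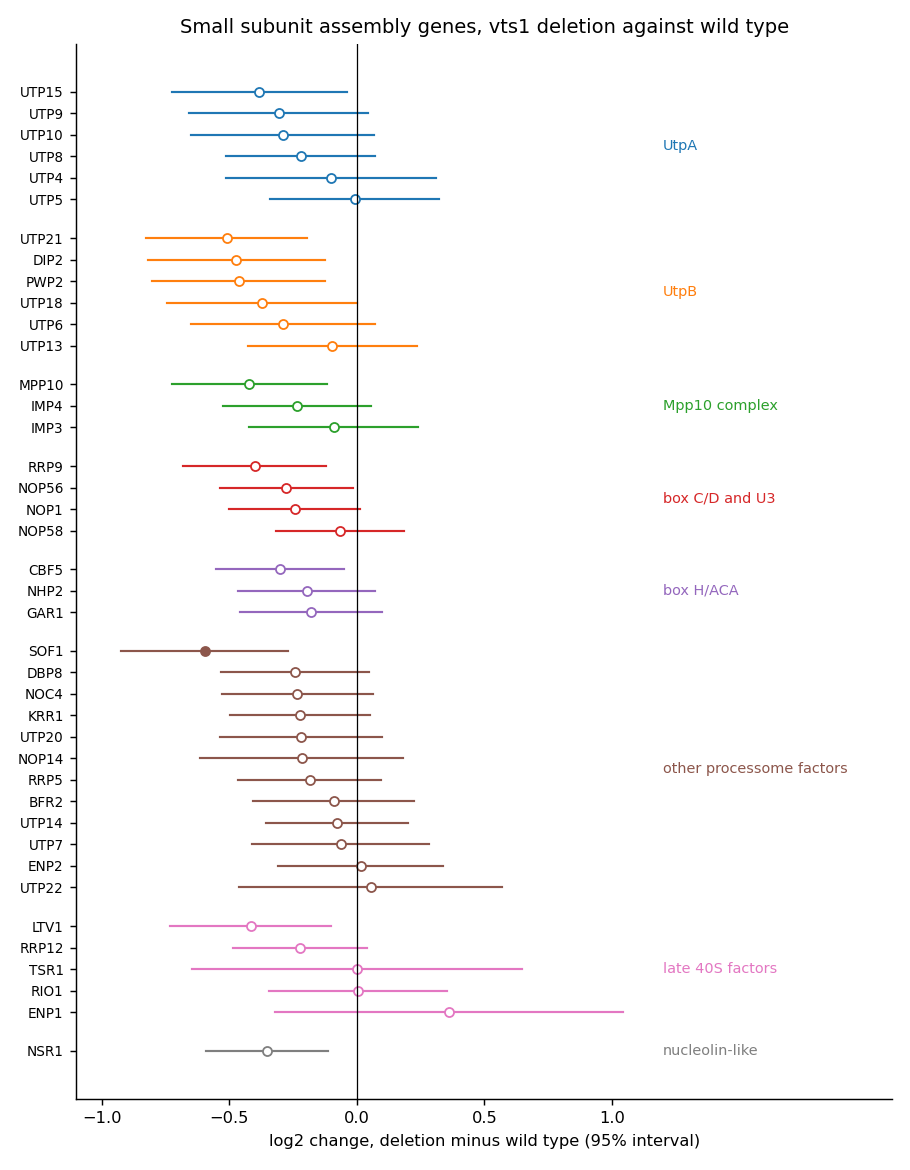
Log2 change of signal, deletion minus wild type, for 40 small subunit assembly genes grouped by role, each with its 95% interval from the limma fit (n = 3 against 2). The filled point is SOF1, which passed the test at an adjusted p under 0.05. Points to the left of 0 number 36, and the 4 others are UTP22, ENP2, RIO1 and ENP1.

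The median of the 40 genes lay below 0 on each deletion array. All deletion arrays were set against the same mean of 2 wild type arrays, so they are not independent repeats of the shift. With each gene set against its own wild type mean, the median over the 40 genes was -0.22, -0.21 and -0.27 (log2) on deletion arrays 1, 2 and 3, and 36, 32 and 34 of the genes lay below their wild type mean there. The wild type arrays had medians of 0.0014 and -0.0014, which mirror each other because each gene was set against the mean of these arrays. Over all probe sets tested the same medians were -0.05, -0.04 and 0.0007 on the deletion arrays. The share of all probe sets below their wild type mean was not counted on single arrays, and in the fit 54.8% had a negative change. The fit's 95% intervals were narrow enough to leave out a 2-fold change in either direction for 39 of the 40 genes (ENP1 was the exception) and a 1.5-fold change for 24. Single values were less settled than the median of the list. With each array left out in turn, 11 genes kept their sign and stayed within 1.5 times of their value: SOF1, UTP21, DIP2, PWP2, MPP10, LTV1, NSR1, CBF5, NOP1, NOP56 and KRR1. The sign turned for 10 of the other 29, and the remaining 19 moved by more than 1.5 times at least once.

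**Figure D2:**
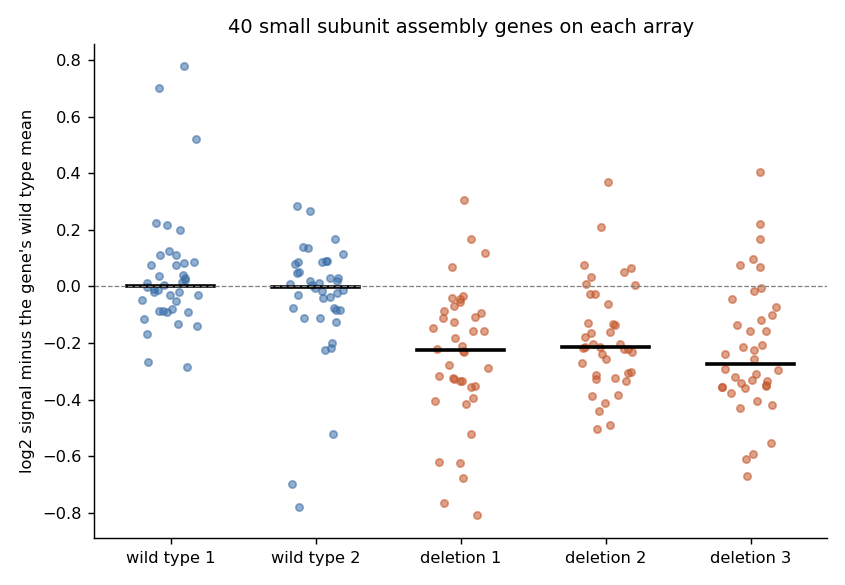
Log2 signal of each of the 40 genes minus that gene's wild type mean, on each array, with a black bar at the median. The 3 deletion arrays have medians of -0.22, -0.21 and -0.27, and the 3 points near the top of wild type 1 and the bottom of wild type 2 are ENP1, TSR1 and UTP22.

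UtpB is a complex made mostly of WD-repeat proteins that joins the processome early together with U3. All 6 of its genes had a negative change, with a median log2 change of -0.42, and in 4 every deletion array lay below the wild type. Over all probe sets tested 54.8% were negative and 21.7% lay wholly lower. UTP21 (YLR409C) had signals of 4868 and 5071 with VTS1 present and 2927, 3734 and 3884 without it. Every deletion array lay below both wild type arrays. Its log2 change was -0.51 ± 0.14 (SE, n = 3 against 2), just outside the threshold with an adjusted p of 0.0533, and it was called under 7 of 18 alternatives, among them a centring of each array on its median (adjusted p = 0.0324; range over all of them 0.0324 to 0.612). DIP2 (YLR129W), also called UTP12, had 2383 and 2143 against 1413, 1595 and 1916, a log2 change of -0.47 ± 0.16 (adjusted p = 0.109). PWP2 (YCR057C), also called UTP1, had 1707 and 1520 against 1226, 1231 and 1056 (-0.46 ± 0.16, adjusted p = 0.105). In both genes, too, the groups did not overlap. UTP18 and UTP6 had log2 changes of -0.37 and -0.29. The value of UTP18 was -0.64 without wild type replicate 1 (adjusted p = 0.0449, a call) and -0.11 without wild type replicate 2, and that of UTP6 was -0.17 without deletion replicate 1. UTP13 (YLR222C) was the member closest to no change, with 4377 and 4891 against 3700, 4218 and 5196, so that deletion array 3 was the brightest of the 5 (log2 change -0.10 ± 0.15, adjusted p = 0.764).

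UtpA is the first complex to bind the nascent precursor, at its 5' end, and several of its subunits are also needed for full transcription of ribosomal DNA. All 6 of its genes had a negative change, with a median log2 change of -0.26, and in 3 every deletion array lay below the wild type, beside the same 54.8% and 21.7% of all probe sets tested. UTP15 (YMR093W) had 3291 and 4159 with VTS1 present and 2405, 3149 and 3020 without it, a log2 change of -0.38 ± 0.16 (adjusted p = 0.187). All deletion arrays were below the wild type, but the wild type arrays lay about as far from each other as the lower of them lay from deletion array 1. UTP5 (YDR398W) overlapped fully, with 4477 and 3318 against 3455, 3942 and 4122, and had a log2 change of -0.0092 ± 0.15 (adjusted p = 0.982). UTP9 and UTP8, whose groups did not overlap, and UTP10 and UTP4, whose groups did, had log2 changes of -0.31, -0.22, -0.29 and -0.10. UTP9 had -0.08 without wild type replicate 1 and -0.53 without wild type replicate 2. UTP8 had -0.14 without wild type replicate 1, UTP10 had -0.12 without deletion replicate 1, and UTP15 had -0.21 without wild type replicate 2.

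The Mpp10 complex, in which Imp3 and Imp4 help U3 pair with the precursor, had 3 genes with negative changes. MPP10 (YJR002W) had 2166 and 2452 against 1727, 1642 and 1796, with all deletion arrays lower. Its log2 change was -0.42 ± 0.14 (adjusted p = 0.0987). IMP4 had a log2 change of -0.24 with groups that did not overlap. IMP3 (YHR148W) had 2756 and 2669 against 3048, 2301 and 2351, where deletion array 1 was the brightest and the other two the dimmest (log2 change -0.09 ± 0.15, adjusted p = 0.776).

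Box C/D particles hold the methyltransferase Nop1 (fibrillarin in animals) and its scaffold proteins Nop56 and Nop58, and Rrp9 is the protein that marks the U3 particle among them. RRP9 (YPR137W) had 5191 and 6293 with VTS1 present and 4536, 4219 and 4244 without it, a log2 change of -0.40 ± 0.13 (adjusted p = 0.0898), which was -0.54 without wild type replicate 1 (adjusted p = 0.0487, a call) and -0.26 without wild type replicate 2. NOP56 (YLR197W) had 6032 and 6150 against 5183, 4672 and 5246, and NOP1 (YDL014W) 17779 and 18295 against 16712, 14956 and 14153. In all of these genes the deletion arrays lay below the wild type. The log2 changes of NOP56 and NOP1 were -0.28 ± 0.12 and -0.24 ± 0.12 (adjusted p = 0.208 and 0.265). NOP58 (YOR310C) had nearly equal signals of 55875 and 54680 against 53228, 55668 and 49564 (log2 change -0.07 ± 0.12, adjusted p = 0.785). Of its 4 probe sets, all tested, 3 had negative changes and 1 a positive one, from -0.43 to 0.02, and 0 were called.

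Box H/ACA particles are built on Cbf5, the pseudouridine synthase, with Gar1, Nhp2 and Nop10. CBF5 (YLR175W) had 15231 and 17169 with VTS1 present and 13002, 13551 and 12834 without it, where no array reached the wild type (log2 change -0.30 ± 0.11, adjusted p = 0.152). NHP2 (YDL208W) had 29867 and 31850 against 29915, 26585 and 24503. Its groups overlapped through deletion array 1, and its log2 change was -0.20 ± 0.12 (adjusted p = 0.394). GAR1 (YHR089C) had 22054 and 22951 against 22005, 20486 and 17356. Deletion array 1 lay just under the wild type and deletion array 3 well below it, and the log2 change was -0.18 ± 0.13 (adjusted p = 0.459). NOP10 was not measured here. The nucleolin-like protein Nsr1, which is abundant in the nucleolus and needed for 18S production, had closely spaced arrays: NSR1 (YGR159C) had 20777 and 21370 against 16512, 17064 and 15934. The gap between the groups was several times the spread within either, yet the change was small (log2 change -0.35 ± 0.11, adjusted p = 0.0808).

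SOF1 was the gene called lower among the other processome factors. Sof1 is an essential WD-repeat protein of the U3 particle that was found through its genetic link to Nop1. Its gene (YLL011W) had signals of 6559 and 6216 with VTS1 present and 3646, 5139 and 4020 without it, with means of 6387 ± 242 (SD, n = 2) and 4268 ± 777 (SD, n = 3). All deletion arrays lay below both wild type arrays, and deletion array 2 came closest. The log2 change was -0.60 ± 0.15, 66.1% of the wild type level, with a 95% interval from -0.92 to -0.27 (adjusted p = 0.0322). The call held under 9 of 18 alternatives. It was lost without the filter on dim probe sets (adjusted p = 0.223), without a variance trend (0.124) and with array weights (0.0755). Against a 1.2-fold minimum (0.362) and with a replicate block (0.135) it was lost too. Leaving out any array but deletion replicate 2 also ended it (0.0581 and 0.118 without deletion replicates 1 and 3).

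The other 11 processome factors had no call, with 9 negative and 2 positive changes. The groups of DBP8, an RNA helicase, NOC4, the partner of Nop14, and KRR1, a KH-domain protein, did not overlap, and their log2 changes were -0.24, -0.23 and -0.22. UTP20, a very large scaffold protein, and NOP14 had values of -0.22 each, and RRP5, needed for both subunits, one of -0.18, all with overlapping groups. BFR2, UTP14 and UTP7 stood at -0.09, -0.08 and -0.06. ENP2 (YGR145W) had 3326 and 2524 with VTS1 present and 3041, 3054 and 2704 without it, with a log2 change of 0.02 ± 0.15 (adjusted p = 0.968). UTP20 had 10 probe sets, of which 7 passed the filter, 6 with negative changes and 1 with a positive one, from -0.76 to 0.02. The other probe sets were dimmer than the one used, and 0 of the 7 were called (adjusted p = 0.127 to 0.979).

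Among the factors of the later pre-40S particle the values spread most, and their median log2 change was -0.0006. This median of 5 genes is the value of TSR1, and the highest value, 0.36, is that of ENP1. In both genes the wild type arrays disagreed by more than 2-fold, as described below, so neither figure is settled. Ltv1 and Enp1 sit on the particle's head, Tsr1 is a GTPase-like protein that blocks early joining with the large subunit, Rrp12 takes part in export and Rio1 is a kinase of the last steps. LTV1 (YKL143W) had 2215 and 2244 with VTS1 present and 1770, 1781 and 1481 without it, all lower (log2 change -0.42 ± 0.15, adjusted p = 0.117). RRP12 (YPL012W) had 10466 and 12605 against 9857, 9850 and 9831, also without overlap (-0.22 ± 0.12, adjusted p = 0.325), but its value was -0.36 without wild type replicate 1 and -0.088 without wild type replicate 2. RIO1 (YOR119C) was level, with 1238 and 1186 against 1314, 1070 and 1276 (0.0043 ± 0.16, adjusted p = 0.992).

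In ENP1, TSR1 and UTP22 the wild type arrays disagreed with each other by more than 2-fold, so that the deletion arrays lay between them. ENP1 (YBR247C) had signals of 5488 and 1869 with VTS1 present and 3958, 4140 and 4243 without it. TSR1 (YDL060W) had 8588 and 3258 against 4515, 5311 and 6165. UTP22 (YGR090W), of the UtpC complex, had 3644 and 1767 against 2466, 2932 and 2527. A difference this large between the wild type arrays was found in 1.65% of all probe sets tested, and in each of the 3 genes wild type array 1 was the brighter. In the fit on all arrays these genes had values of 0.36 ± 0.31, -0.0006 ± 0.30 and 0.05 ± 0.24 on the log2 scale (adjusted p = 0.557, 1.00 and 0.922), and the direction depended on which wild type array was kept. Without wild type replicate 1, the log2 change was 1.14 for ENP1 (adjusted p = 0.000565) and 0.70 for TSR1 (adjusted p = 0.0336), both called higher, while UTP22 had 0.58 (adjusted p = 0.0703). Without wild type replicate 2 the values were -0.42, -0.70 and -0.47, and TSR1 was called lower (adjusted p = 0.0378). ENP1 and TSR1 had 1 probe set each. UTP22 had 6, of which 5 were tested, 3 with negative and 2 with positive changes. On the next brightest of these the wild type order was the other way round, with 1849 and 2875 against 1913, 1331 and 1792 (log2 change -0.48, adjusted p = 0.210).

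**Figure D3:**
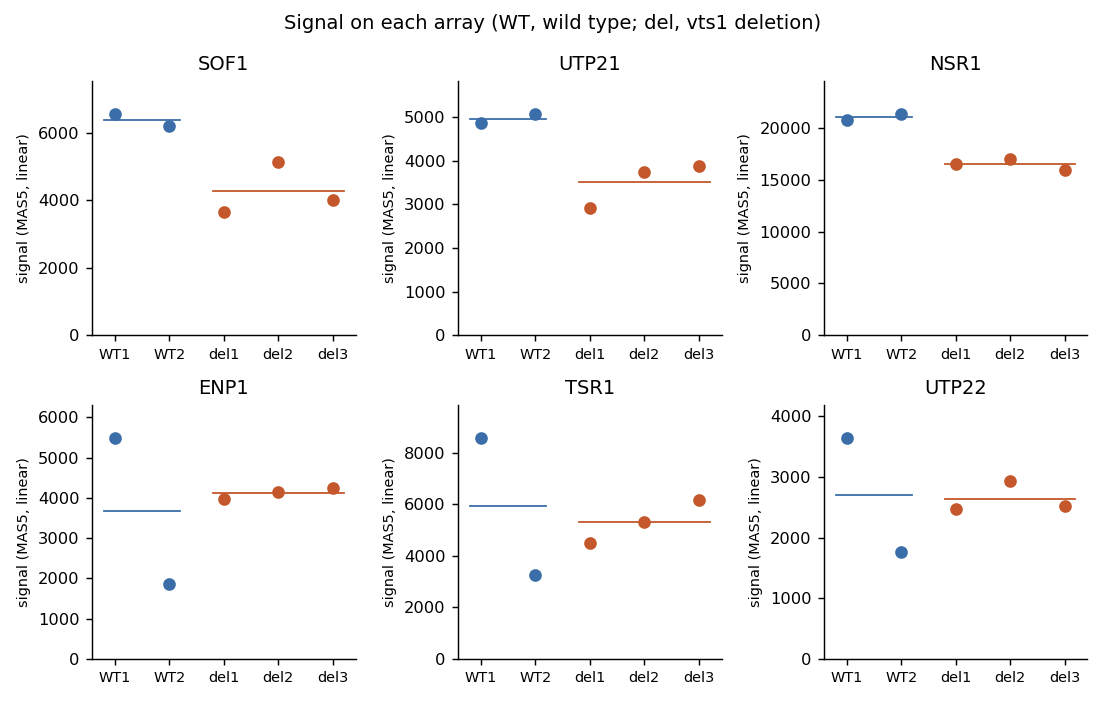
Signal on a linear scale on each of the 5 arrays for 6 genes, with lines at the group means. In the upper row (SOF1, UTP21, NSR1) all deletion arrays lie below both wild type arrays, and in the lower row (ENP1, TSR1, UTP22) wild type array 1 lies above and wild type array 2 below all deletion arrays.

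A second list held 57 further genes of small subunit assembly, among them helicases, kinase subunits, nucleases, methyltransferases and assembly factors of the box C/D and H/ACA particles. Of these 56 passed the filter and were tested. Their median log2 change was -0.20, close to that of the 40 genes above. Of the 56, 48 were negative, or 85.7% beside 54.8% of all probe sets tested. The list was chosen with earlier results of these data known and was read on the same arrays, so its likeness to the first list is not independent support. In 23, or 41.1%, the groups did not overlap with the deletion arrays lower, beside 21.7% of all probe sets tested, and in 2, or 3.57%, with them higher, beside 16.8% of all. The genes called lower numbered 2, or 3.57% beside 3.05% of all probe sets, and 0 were called higher, beside 4.39%. BMS1 (YPL217C), the GTPase of the processome, fell from 3059 and 3311 to 2290, 2258 and 2170, with all deletion arrays close together below the wild type (log2 change -0.51 ± 0.13, adjusted p = 0.0329). UTP23 (YOR004W), needed for release of the snR30 guide RNA, fell from 9717 and 10157 to 7364, 7590 and 7458 (-0.41 ± 0.11, adjusted p = 0.0447). FCF2, a processome factor, and DHR2, an RNA helicase, had similar sizes, -0.58 ± 0.17 and -0.52 ± 0.15, without a call (adjusted p = 0.0560 and 0.0625). Of 18 alternatives, 9 kept the call of BMS1 and 9 that of UTP23. Leaving out any single array ended the call of UTP23. That of BMS1 ended without either wild type array and without deletion replicate 2.

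**Figure D4:**
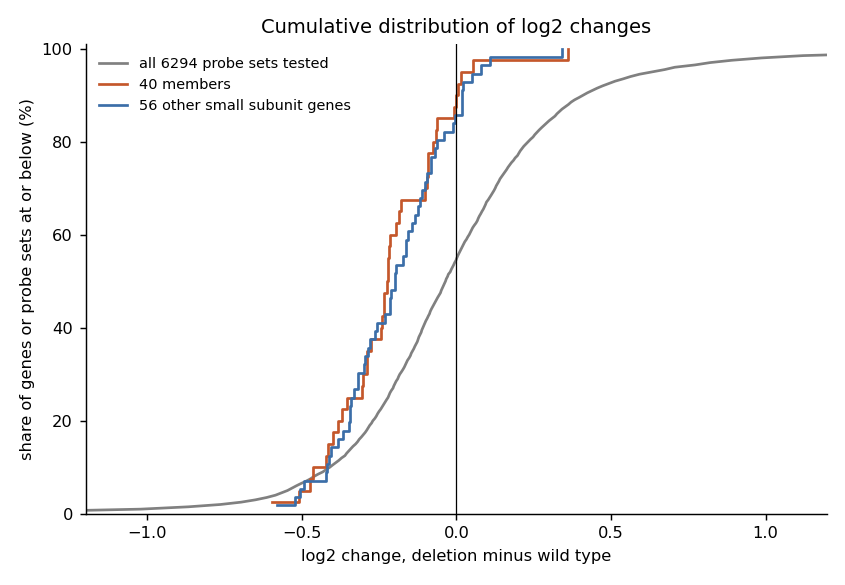
Share of genes or probe sets whose log2 change, deletion minus wild type, lies at or below the value on the horizontal axis, for the 40 genes, 56 other small subunit genes and all 6294 probe sets tested. Both gene lists lie left of the curve for all probe sets over most of its height, with medians of -0.22 and -0.20 against -0.04, and neither reaches the large decreases at the far left.

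Of 18 regulators linked to the transcription of ribosome assembly genes 17 were tested, and 1 passed the test. DOT6 (YER088C), which encodes a Myb-type repressor of these genes, rose from 8413 and 8498 in the wild type to 12781, 11869 and 13374 in the deletion strain. All deletion arrays lay above the wild type, and its log2 change was 0.58 ± 0.11 (adjusted p = 0.00770), 1 of 17 where 4.39% of all probe sets were called higher. Its call held under 14 of 18 alternatives. It was lost without the filter, without a variance trend and against a 1.2-fold minimum (adjusted p = 0.0556, 0.0598 and 0.173), and also with the replicate block described below. For TOD6, the paralog of DOT6, the log2 change was -0.05 (adjusted p = 0.875). SFP1 (YLR403W), an activator of the same genes, had 1407 and 1522 against 836.3, 1375 and 1048, all lower, with a log2 change of -0.46 ± 0.20 (adjusted p = 0.213). STB3, a repressor that binds another promoter element, had 617.9 and 536.6 against 679.5, 707.6 and 779.8 (0.32 ± 0.19, adjusted p = 0.365), and REB1, a general regulatory factor, 531.1 and 566.8 against 777.8, 730.7 and 687.2 (0.41 ± 0.19, adjusted p = 0.231). In these genes, too, the groups did not overlap, and none of them had a call. Of the 17 regulators, 3 lay wholly higher, or 17.6% beside 16.8% of all probe sets tested. Another 2 lay wholly lower, or 11.8% beside 21.7%, and in the other 12 the groups overlapped.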

How the data were processed

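RNA from 2 wild type and 3 vts1 deletion arrays was compared. Per the submitters' processing notes, MAS5 made the deposited signal intensity values (1 linear value per probe set). The sources used here give no version of it. The authors' intensities had been scaled: the mean without 2% of the probe sets at each end was 2502.47 to 2502.68 on every array. No further scaling was applied. The 60 control probe sets were left out. Signals under 50.1 were raised to that floor, log2 was taken, and the 6294 probe sets with a mean of at least 250.3 were tested with limma 3.58.1 in R 4.3.3 (lmFit, eBayes with a variance trend; 3 residual degrees of freedom, prior 9.02), two-sided, with Benjamini-Hochberg adjustment over all of them and a threshold of 0.05. The background level was the 95th percentile of 28 controls without a target in yeast RNA. The labels do not say that arrays came from separate cultures, so p-values measure array-to-array spread that may be technical, and the number of arrays limits precision.

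Names were taken from the platform annotation, locus tags from the RefSeq table (R64). Members, lists and settings were chosen with earlier results of these data known. The text accounts for every listed member and gives all arrays for those that passed the test, those with the largest and smallest changes, the smallest and largest p of each role group; from both other lists it names the called genes and the 4 with the smallest p. Array values of NOP56, NOP1, NHP2, PWP2, RRP12, ENP1 and UTP22, and the value of TOD6, were added after their values were seen. The fit was run on simulated data with independent noise drawn from its own variance model. That checks the code, and says nothing of array-wide effects or of how well the model suits these arrays. A planned motif search in promoters was not run, as promoter sequences were not used here. Alternatives numbered 18.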

Additional observations from a re-analysis of the deposited data

How the results depend on the processing

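The median log2 change of the 40 genes was negative under all 18 alternatives. The floors, filters, variance trend settings and 1.2-fold minimum do not alter these genes' log2 changes, so -0.22 was fixed there. The median moved from -0.22 to -0.19 with a replicate block and lay between -0.26 and -0.19 with 1 array left out. The number of genes called lower, 1, was 3 with quantile normalization, 2 with centring on array medians, a stricter filter, a robust trend, array weights, plain probe sets or a gene's mean over probe sets, and 0 without the filter, without a variance trend, against a 1.2-fold minimum or with the block. With 1 array left out it was 0 to 2, and 0 to 2 were called higher (2, ENP1 and TSR1, without wild type replicate 1). The count of genes with all deletion arrays lower, which was chosen after seeing the data, was 16 of 40 with quantile normalization, beside 21.7% of all probe sets. With centring it was 13 of 40, beside 19.0%. It was 23 to 29 with 1 array left out, where fewer arrays separate more easily and the share over all probe sets also rose, to between 25.8% and 36.2%. Of the other small subunit genes, 2 lower became 1 without the filter, 4 with array weights, 0 without a trend, against the minimum or with the block, and 0 to 1 with 1 array left out, where 0 were higher. Over all probe sets, 192 lower and 276 higher became 51 and 54 without the filter, 106 and 188 without a trend, 54 and 146 against the minimum and 69 and 149 with the block.

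Signs turned for some genes, most of them near 0 but also for NOP14 (-0.22) and ENP1 (0.36). The change of NOP58 was 0.019 with plain probe sets, that of UTP5 0.015 with centring and 0.019 with weights, that of UTP7 0.0087 with weights, that of UTP22 -0.24 as a mean over probe sets, that of TSR1 0.017, 0.024 and 0.018 with quantile normalization, centring and weights, and that of RIO1 -0.080 with weights and -0.031 with the replicate block. With 1 array left out, ranges were -0.50 to 0.068 for NOP14, -0.23 to 0.21 for UTP5, -0.13 to 0.067 for UTP7, -0.23 to 0.017 for UTP13, -0.17 to 0.010 for UTP14, -0.47 to 0.58 for UTP22, -0.42 to 1.14 for ENP1, -0.18 to 0.21 for ENP2, -0.70 to 0.70 for TSR1 and -0.052 to 0.10 for RIO1. Without a turn of sign, 19 other genes moved by more than 1.5 times, among them UTP20 (-0.34 to -0.09), RRP5 (-0.30 to -0.07), DBP8 (-0.35 to -0.13), IMP4 (-0.35 to -0.13), NOC4 (-0.32 to -0.15) and GAR1 (-0.25 to -0.08). The cause was not tested. Where 1 wild type array remained, it was assumed to vary like the deletion arrays.

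The replicate numbers are shared by 2 arrays of each group, and nothing in the labels ties them to a day or culture. Differences between arrays 1 and 2 correlated at -0.0787 between the groups over all probe sets. With the replicate block SOF1 had an adjusted p of 0.135 and DOT6 one of 0.0674.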

Other observations

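The disagreement of the wild type arrays at ENP1, TSR1 and UTP22 was 2.94-fold, 2.64-fold and 2.06-fold. Of the 104 probe sets where these arrays differed by more than 2-fold, 82 were brighter on wild type array 1 and 22 on wild type array 2. By the size of this difference ENP1 ranked at 20, TSR1 at 25 and UTP22 at 90 of 6294 probe sets tested. The cause was not tested.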
